A study of Macaca mulatta with 49 samples.

Results

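The samples described here are CD4+ central memory T cells (TCM) of 6 rhesus macaques (Macaca mulatta) that received a control IgG1 antibody, with 1 sample before (pre) and 1 after (post) treatment from each animal. They are the 12 samples whose labels give CD4+ TCM as the source and the IgG1 control antibody as the treatment, out of 48 samples (49 arrays) in the series. The cells had been sort-purified from peripheral blood mononuclear cells, and their total RNA was hybridised to Illumina expression BeadChips that carry human probes. The other samples are CD4+ TCM of 6 further macaques given an antibody to interleukin 15 (IL-15), and the CD8+ TCM of all 12 animals, each also taken pre and post. The labels give no dose, no interval between the samples and no age or sex of the animals, and they spell the later IgG1 time point "Prost Treatment", which is taken here as post. The IgG1 arm is the study's control, and comparing its 2 times asks how far the transcripts of CD4+ TCM differ between 2 blood samples of the same animal when IL-15 is not neutralised.

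Central memory T cells are antigen-experienced lymphocytes that keep the homing receptors of lymph nodes, recirculate through blood and lymphoid tissue and renew themselves at a slow rate. IL-15 reaches T cells through the IL-2 receptor beta chain and the common gamma chain, which activate the kinases JAK1 and JAK3 and the transcription factor STAT5. SOCS1, SOCS3, SOCS2 and CISH are induced by such cytokine signals and restrain them, so their transcripts are commonly read as a trace of recent cytokine exposure. Memory CD4+ T cells are known to rely on IL-7 as well as IL-15, and memory CD8+ T cells and NK cells to rely on IL-15 more strongly.

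The T cell label held where the human probes gave a signal. Values below are log2 intensities after background correction and quantile normalization, and a probe counts as detected in a sample when its detection p-value was under 0.05. CD3D, a chain of the T cell receptor complex, was detected in 12 of 12 samples at a median of 13.09 (range 12.81 to 13.26), above 98.1% of the genes tested. IL7R, the IL-7 receptor alpha chain, was detected in 12 samples (median 11.92), CCR7, the chemokine receptor for lymph node entry, in 12 (median 7.24, range 6.97 to 8.07) and CD28, the costimulatory receptor, in 11. The probes for CD4 itself, for CD27 and for FAS were detected in 0 of 12 samples and that for CD3E in 3, so the CD4 part of the label could not be checked by its own transcript. A human probe can miss a macaque transcript, and no signal here says nothing about whether the gene was expressed.

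Most markers of other blood cells were low or undetected, with exceptions on the erythroid, monocyte and NK cell lists. CD8B, NCR1, PF4 and CSF3R (CD8+ T cells, NK cells, platelets and granulocytes) were detected in 0 of 12 samples, and ALAS2 in 1, FCN1, KLRF1 and CXCR2 in 2 each, NCAM1 in 3 and MS4A1 in 5. CD8A was detected in 9 samples at a median of 5.40, CD79A of B cells in 11 at 5.35, PPBP of platelets in 10 at 5.17, LYZ of monocytes in 9 at 5.47 and CD14 in 12 at 6.23. HBB, the beta chain of haemoglobin, was detected in all 12 samples and ranged from 8.34 to 13.53. CD68, a lysosomal protein of macrophages, was detected in 12 samples with means of 10.43 pre and 10.26 post, and FCGR3A, an Fc receptor of NK cells and monocytes, in 12 with means of 8.39 and 8.25, both above the median of CCR7. The mean level of the 7 tested monocyte and dendritic cell markers (of 20 listed) lay between 7.15 and 7.56 pre and between 7.03 and 7.58 post, that of the 5 tested erythroid markers (of 13) between 6.24 and 8.97 pre and 6.16 and 8.71 post, and that of the 5 tested B cell markers (of 17) between 5.19 and 5.54 pre and 5.21 and 5.39 post.

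The arrays were of even quality. Between 12900 and 14870 of the 47230 probes were detected per sample (27.3% to 31.5%), and the median raw intensity lay between 96 and 108. Samples of the same animal resembled each other: after removal of the pre and post means, the correlation across genes between an animal's pre and post samples was 0.189 to 0.537, and in 6 of 6 animals it was higher than with any other animal. Animal 1 had the lowest of these correlations and the largest median absolute change per gene, 0.298, against 0.199 to 0.232 in the other 5 animals. On the first principal component (20.4% of the variance), animals 5 and 6 lay at 13.9 to 22.7 and the other 4 at -14.2 to -5.45, so the samples of these 2 animals stand apart, and results without them are given where they differ. The number of CD4+ TCM sorted per sample ran from 250000 to 720000 pre and from 247000 to 788000 post. It was lower post in 4 of 6 animals, and the geometric mean ratio of 0.802 did not differ from 1 beyond the spread between animals (exact two-sided sign-flip permutation test, p = 0.281, n = 6, where the smallest p that 6 pairs allow is 0.0312). The labels do not give the volume of blood behind each sort.

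**Figure D1:**
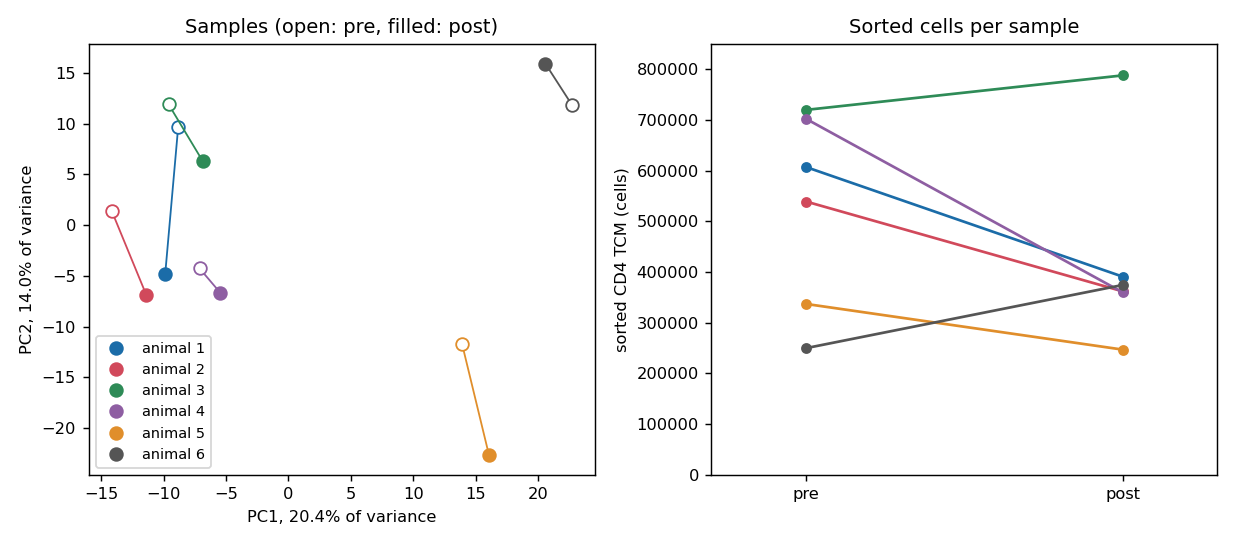
Left, the 12 samples on the first principal components of the 8919 genes tested (percent of variance on each axis); lines join the pre sample (open) and post sample (filled) of an animal, and animals 5 and 6 lie apart from animals 1 to 4 on PC1 at both times. Right, the number of sorted CD4+ TCM per sample, which was lower post than pre in 4 of 6 animals.

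No gene passed the test between pre and post samples in CD4+ TCM of the IgG1 animals. Of 8919 genes tested with limma, with animal as a block and Benjamini-Hochberg adjustment over all of them, 0 were called at an adjusted p under 0.05 (0%). An unadjusted p under 0.05 was found for 315 (3.53%), a share below the 0.05 that this threshold allows with no change at all. Of these, 214 were higher post (2.4% of the genes tested) and 101 lower (1.13%). A total of 202 genes were higher post in 6 of 6 animals (2.26%) and 150 lower in 6 of 6 (1.68%). The precision of the comparison bounds what may have been missed in the measured intensities. The 95% interval of the mean change lay within 1 log2 unit (2-fold) of 0 for 8884 genes, 99.6% of those tested. The median distance from the mean to either bound was 0.330. Only 5846 genes had a probe detected in all 12 samples, and for dim genes an interval of intensity need not bound the change in transcript. Across all genes the median change was -0.00146 and the median absolute change 0.102, and 49.5% of the genes had a mean change above 0. The counts of list members above or below 0 given further on come from the same 6 pairs, so the members are not independent observations. A mean change above 0.585 log2 units (1.5-fold) in either direction was measured for 23 genes. The 1 gene past 1 log2 unit was RNA28SN5, a 28S ribosomal RNA gene and no part of the rule for named genes, at a change of -1.14 ± 0.30 (SE), lower in 4 of 6 animals. In bulk RNA of this kind, fewer cells of a type and less RNA per cell cannot be told apart.

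The gene nearest to the threshold was SOCS1, the suppressor of cytokine signalling that binds and inhibits JAK kinases. Its log2 intensity was 7.28 at the lowest, 8.07 at the median and 9.02 at the highest of the pre samples, and 7.94, 8.82 and 9.83 in the post samples. The groups overlapped, but each animal's post sample lay above its own pre sample. By animal, the changes were 1.26, 0.14, 0.69, 1.01, 0.81 and 0.66 for animals 1 to 6, so animal 2 moved least. The mean went from 8.15 ± 0.65 to 8.91 ± 0.65 (SD, n = 6), a change of 0.76 ± 0.14 (SE; 95% interval 0.47 to 1.06, limma adjusted p = 0.324). Over 26 alternative settings the change stayed between 0.62 and 0.89 and the limma adjusted p ranged from 0.0494 to 1.00. It passed the threshold in 1 of the 26, the fit with array weights, at a change of 0.76, and was at 0.0791 without animal 2.

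Below SOCS1, the genes with the lowest p among those of one direction in all 6 animals were 11 higher and 12 lower genes, none of which passed the test. DUSP8, a phosphatase that inactivates stress-activated MAP kinases, had pre values of 4.57, 4.94 and 5.10 (lowest, median, highest) and post values of 5.13, 5.62 and 5.79, and was detected in 1 of 6 pre and 6 of 6 post samples. Its 2 groups did not overlap, at a change of 0.61 ± 0.14. ACIN1, a nuclear protein of the exon junction complex involved in splicing, did not overlap either: it lay at 7.48, 7.83 and 7.98 pre and at 8.05, 8.30 and 8.50 post, a change of 0.49 ± 0.13. EHMT2, the histone H3 lysine methyltransferase G9a, was at 5.60, 5.75 and 6.02 pre and at 6.14, 6.18 and 6.38 post, again with no overlap, at 0.46 ± 0.14. Across all genes tested, every post sample lay above every pre sample in 14 (0.157%), and every post sample below every pre sample in 4 (0.0448%), which were SLC50A1, PHF13, MMP28 and SLC25A44, the last 3 chosen for naming after their values were seen.

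The remaining higher genes had overlapping groups. PREX1, an activator of the small GTPase Rac, had a mean of 5.38 ± 0.13 pre and 5.94 ± 0.45 post (SD, n = 6). STK10, a serine/threonine kinase of lymphocytes that acts on the cell cortex, was at 8.66 ± 0.11 and 9.15 ± 0.32. In both genes the post samples were spread more widely than the pre samples. MAP2K2, the kinase MEK2 upstream of ERK, went from 5.18 ± 0.37 to 5.75 ± 0.32 and was detected in 4 of 6 pre and 6 of 6 post samples, and RAP1GAP2, which switches off the small GTPase Rap1, from 7.30 ± 0.11 to 7.78 ± 0.36. The other 4 were LRRC14 at a change of 0.63 ± 0.18, VPS37B, a subunit of the ESCRT-I sorting complex, at 0.54 ± 0.15, GIGYF1, a partner of a translation repressor, at 0.47 ± 0.13, and NISCH, an integrin-binding protein, at 0.45 ± 0.14 (SE). The limma adjusted p of these 11 genes was 1.00.

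The 12 genes named as lower included several at the edge of detection. SLC50A1, a sugar transporter, had pre values of 5.89, 6.18 and 6.58 and post values of 5.27, 5.79 and 5.86, with no overlap and a change of -0.59 ± 0.18. A second SLC50A1 probe, detected in 12 of 12 samples, had a mean change of -0.01 and was higher post in 4 animals, so the 2 probes of the gene disagreed. CACUL1, which promotes the cell cycle through CDK2, was at 5.49, 6.23 and 6.27 pre and at 4.77, 5.76 and 5.89 post, a change of -0.54 ± 0.15 to which animal 5 contributed the most, at -1.03. HERC5, the ligase that attaches the interferon-induced ISG15 to proteins, was at 5.60, 6.20 and 7.31 pre and at 5.38, 5.77 and 6.96 post (-0.36 ± 0.13). Its spread between animals exceeded the difference between the times. EGR3, an early growth response transcription factor induced by the T cell receptor, was detected in 5 of 6 pre samples and 1 of 6 post samples, with means of 5.26 ± 0.24 and 4.84 ± 0.18. DEK, a chromatin protein of dividing cells, was detected in 5 pre and 0 post samples, with measured means of 5.17 and 4.82. Its pre mean was 1.09-fold higher with the post samples set to the lowest signal among detected probes where they lay below it. That value keeps the undetected pre sample as measured and does not allow for the spread between animals. HCLS1, an actin regulator of haematopoietic cells (-0.44 ± 0.14), SCFD2 (-0.44 ± 0.15), NUDT7, a peroxisomal coenzyme A hydrolase (-0.38 ± 0.13), MARK1 (-0.38 ± 0.13), PPT1, a lysosomal thioesterase (-0.37 ± 0.14), MUSTN1 (-0.34 ± 0.11) and MGST2, a microsomal glutathione transferase (-0.33 ± 0.12), completed the 12, and the limma adjusted p of all 12 was 1.00.

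**Figure D2:**
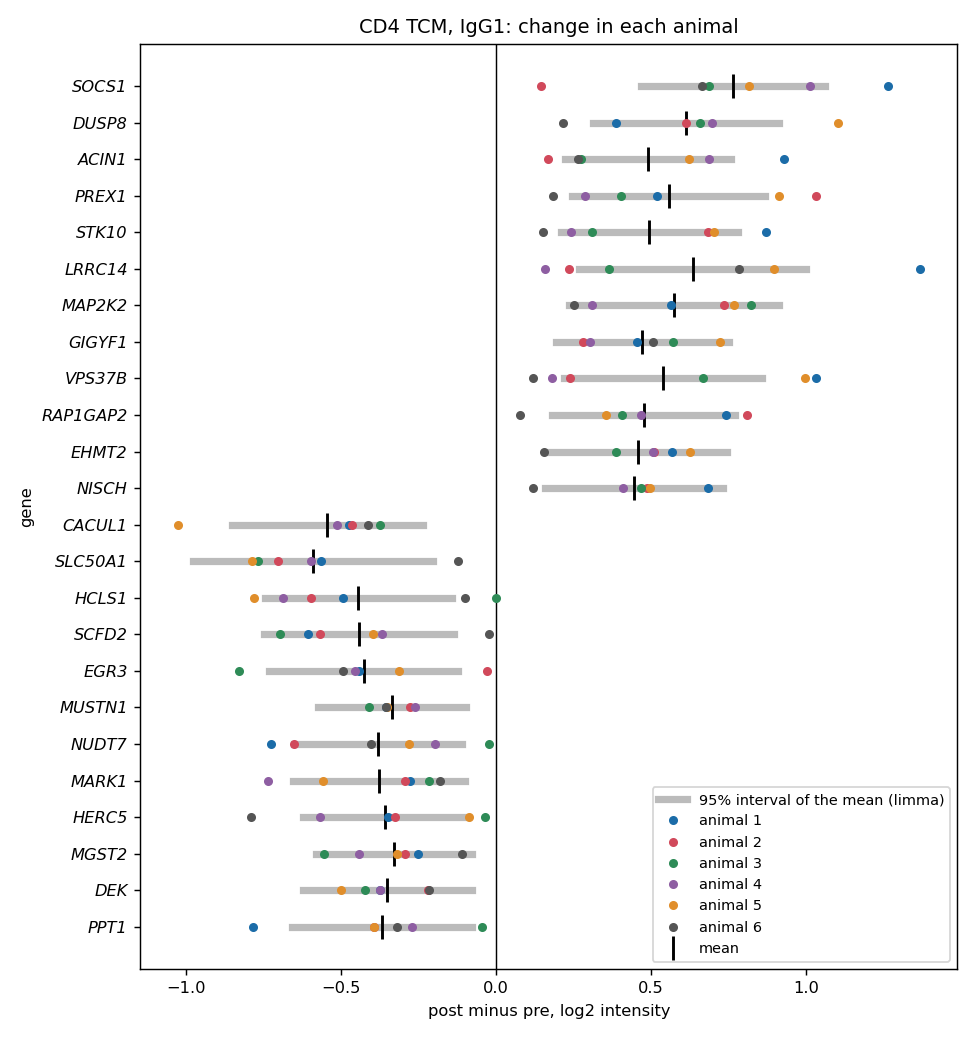
Change (post minus pre, log2 intensity) of the 24 named genes, with 1 point per animal, the mean as a tick and its 95% interval from limma as a grey bar. The genes were picked for the same sign in all 6 animals, so the side of 0 is given by the choice; the SOCS1 changes run from 0.14 in animal 2 to 1.26 in animal 1, and the CACUL1 change of animal 5 lies apart at -1.03.

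Among the genes that respond to STAT5, the feedback regulators did not move together. Of 18 listed genes all were tested, 0 passed, 12 had a mean change above 0, and their median change was 0.09 against -0.00146 for all genes. SOCS3, a suppressor of cytokine signalling that acts mainly on gp130-type receptors, was at 6.69, 7.07 and 7.15 pre and at 6.98, 7.55 and 8.84 post. It was higher in 6 of 6 animals, by 1.72 in animal 5 and 0.07 in animal 3, with a mean change of 0.65 ± 0.20. SOCS2 and CISH, by contrast, were each higher post in 3 animals and had mean changes of -0.19 and -0.05. Their pre values were highest in animals 5 and 6, at 7.68 and 7.52 for SOCS2 and 6.69 and 6.61 for CISH, where the other 4 animals had CISH values of 5.04 to 5.54. CCND3, the cyclin D3 of lymphocyte proliferation, was higher in 6 of 6 animals (10.25 ± 0.21 to 10.68 ± 0.34, change 0.43 ± 0.16), and MCL1, an anti-apoptotic BCL2 relative, was lower in 5 (-0.32 ± 0.15). The limma adjusted p of SOCS3, SOCS2, CISH, CCND3 and MCL1 was 1.00.

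**Figure D3:**
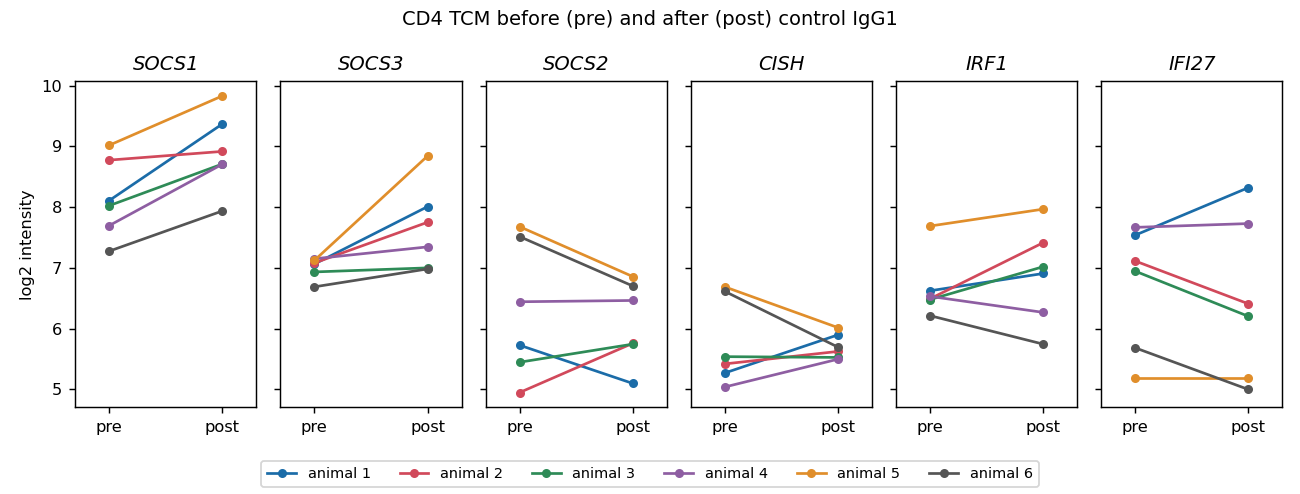
Log2 intensity before and after IgG1 in each of the 6 animals for the cytokine feedback genes SOCS1, SOCS3, SOCS2 and CISH and for the interferon-regulated genes IRF1 and IFI27. All 6 lines slope upward for SOCS1 and SOCS3, while those of SOCS2, CISH, IRF1 and IFI27 run in both directions; no gene passed the test.

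The receptors and kinases of the IL-15 pathway were measured with small differences in either direction. Of 18 listed genes 11 were tested, 0 passed, and 8 had a mean change above 0 (median 0.10). IL2RG, the common gamma chain, had means of 5.67 ± 0.11 and 5.87 ± 0.21 (change 0.20 ± 0.14), and JAK1, its kinase, 10.80 ± 0.19 and 10.97 ± 0.18 (0.17 ± 0.12), each higher post in 6 of 6 animals. STAT5A was at 9.17 ± 0.23 and 9.46 ± 0.24 (0.29 ± 0.14, higher in 5), STAT5B at 0.19 ± 0.15, IL4R at 0.20 ± 0.14, IL7R at 0.10 ± 0.21, IL2RA at 0.09 ± 0.14 and IL21R at 0.01 ± 0.15. Lower means were measured for IL2RB, the shared beta chain, at -0.17 ± 0.18, for PTPN2, a phosphatase of JAK1, at -0.16 ± 0.24 and for STAT3 at -0.03 ± 0.20. The 95% interval of all 11 lay within 1 log2 unit of 0.

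Glucocorticoid-responsive transcripts had the highest median change among the lists of at least 3 tested genes. Of 13 listed genes 10 were tested, 0 passed, 8 had a mean change above 0 and the median was 0.30; by animal the median of the list ran from 0.04 to 0.39 and lay above 0 in 6 of 6. SGK1, a kinase induced by steroid hormones, was at 4.58, 7.41 and 8.35 pre and at 5.47, 8.16 and 8.79 post (0.58 ± 0.29, higher in 5 of 6 animals). FKBP5, a chaperone partner of the glucocorticoid receptor and one of its induced genes, was at 8.76, 9.21 and 9.58 pre and at 8.94, 9.51 and 10.46 post (0.45 ± 0.21). It was higher in 5 animals, by up to 1.18 in animal 4, and lower by 0.64 in animal 6. ZBTB16, another induced gene, had a change of 0.36 ± 0.20 and DUSP1, a MAP kinase phosphatase, of 0.31 ± 0.19. The groups overlapped in all 4 genes. The list's median was 0.13 with the values the authors deposited and also without background correction.

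Cell cycle transcripts had the lowest median change among the same lists. Of 32 listed genes 24 were tested, 0 passed, 22 had a mean change below 0 and the median was -0.18. By animal the median of the list was below 0 in 5 of 6, though only -0.01 in animal 5, and was 0.07 in animal 6. STMN1, a microtubule regulator of dividing cells, was at 5.32, 5.91 and 6.49 pre and at 5.18, 5.34 and 5.57 post (-0.52 ± 0.20), and TYMS, the thymidylate synthase of DNA synthesis, at 5.76, 6.19 and 7.06 pre and 5.54, 5.73 and 6.08 post (-0.49 ± 0.20). Both were lower in animals 1 to 5 and higher in animal 6, and the pre samples were the more widely spread. CDC20, an activator of the anaphase-promoting complex, had a change of -0.40 ± 0.21 with the same split of animals. UBE2C, its ubiquitin-conjugating partner, was detected in 3 of 6 pre and 0 of 6 post samples (measured means 5.13 and 4.69). Its pre mean was 1.07-fold higher with the post samples set to the lowest signal among detected probes. That value keeps undetected pre samples as measured and does not allow for the spread between animals. Across 12 alternative settings the median of the list stayed below 0, between -0.29 and -0.07. Among markers of other cells, CD8A, the only 1 tested on its list, had a change of -0.36 ± 0.21 and was lower in 5 animals. The monocyte marker AIF1, at -0.33 ± 0.14 and also lower in 5, was the lowest of 7 tested, of which 3 were above 0. The medians of the B cell and monocyte lists were -0.11 and -0.03. All 5 tested erythroid markers had a mean change above 0, with a median of 0.12. The part of other cells in the cell cycle values was not tested.

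The T cell receptor complex and its adaptors had 16 of 20 listed genes tested, 0 past the threshold, 11 above 0 and a median of 0.09 that was above 0 in 6 of 6 animals. CD6, a receptor that regulates T cell activation, was at 10.53 ± 0.26 pre and 10.93 ± 0.41 post (0.40 ± 0.15, higher in 6 of 6). ZAP70, the kinase recruited to the receptor, was at 7.92 ± 0.25 and 8.42 ± 0.45 (0.51 ± 0.21) and was higher in 5 animals, by 1.04 in animal 5, and lower by 0.33 in animal 6. Activation and inhibitory receptors leaned the other way, with 8 of 11 tested genes below 0, a median of -0.07 and no animal with a list median above 0. CD96, a receptor for nectin-family ligands, was at 6.21 ± 0.42 and 5.85 ± 0.57 (-0.36 ± 0.14) and LAG3, an inhibitory receptor for MHC class II, at 5.60 ± 0.21 and 5.41 ± 0.16 (-0.20 ± 0.15), each lower in 6 of 6 animals. Among 14 tested chemokine receptors and integrins, 11 were above 0 (median 0.09), and the subunits of the gut-homing integrin, ITGA4 (0.33 ± 0.14) and ITGB7 (0.32 ± 0.15), were both higher in 6 of 6 animals. The limma adjusted p of each gene named here was 1.00.

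Survival, stress and metabolism lists centred near 0. Among 10 tested BCL2 family and death genes the median was -0.00136: BAK1, a pore-forming killer protein, was at 6.82 ± 0.44 pre and 6.22 ± 0.35 post (-0.60 ± 0.18) but lower in only 4 of 6 animals, while BCL2L1, which encodes the survival protein BCL-XL, was at 8.86 ± 0.18 and 9.22 ± 0.17 (0.36 ± 0.16) and higher in 6. HSPE1, a mitochondrial chaperonin, had the highest mean change of all genes tested, 0.78 ± 0.32, with changes of 1.42, 1.64 and 1.61 in animals 1, 3 and 5 and of -0.82 in animal 2, whereas 8 of the 10 tested heat shock genes were below 0 (median -0.13). That median was 0.04 without animals 5 and 6. Of 19 tested immediate early genes 13 were above 0 (median 0.07), and NR4A2, a nuclear receptor induced by activation, had a change of 0.61 ± 0.29 that owed most to a difference of 2.38 in animal 6. Oxidative phosphorylation (42 tested), glycolysis (18), proteasome (29), ribosomal protein (58), cholesterol synthesis (6), unfolded protein (9), circadian clock (12) and GIMAP (3) lists had medians of -0.06, -0.07, -0.04, 0.02, 0.03, -0.08, 0.03 and 0.09. Those of memory quiescence (8), T helper (12), effector regulators (11), cytotoxic effectors (8) and regulatory T cell markers (6) were 0.02, 0.06, 0.03, 0.00 and 0.05. The cytotoxic median was 0.33 over the genes detected in all 12 samples and ran from -0.10 to 0.33 over 12 alternatives. GZMK, a granzyme of memory T cells, was higher in 5 of 6 animals (6.13 ± 0.65 to 6.58 ± 0.77, change 0.46 ± 0.22). No member of any of these lists passed the test.

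**Figure D4:**
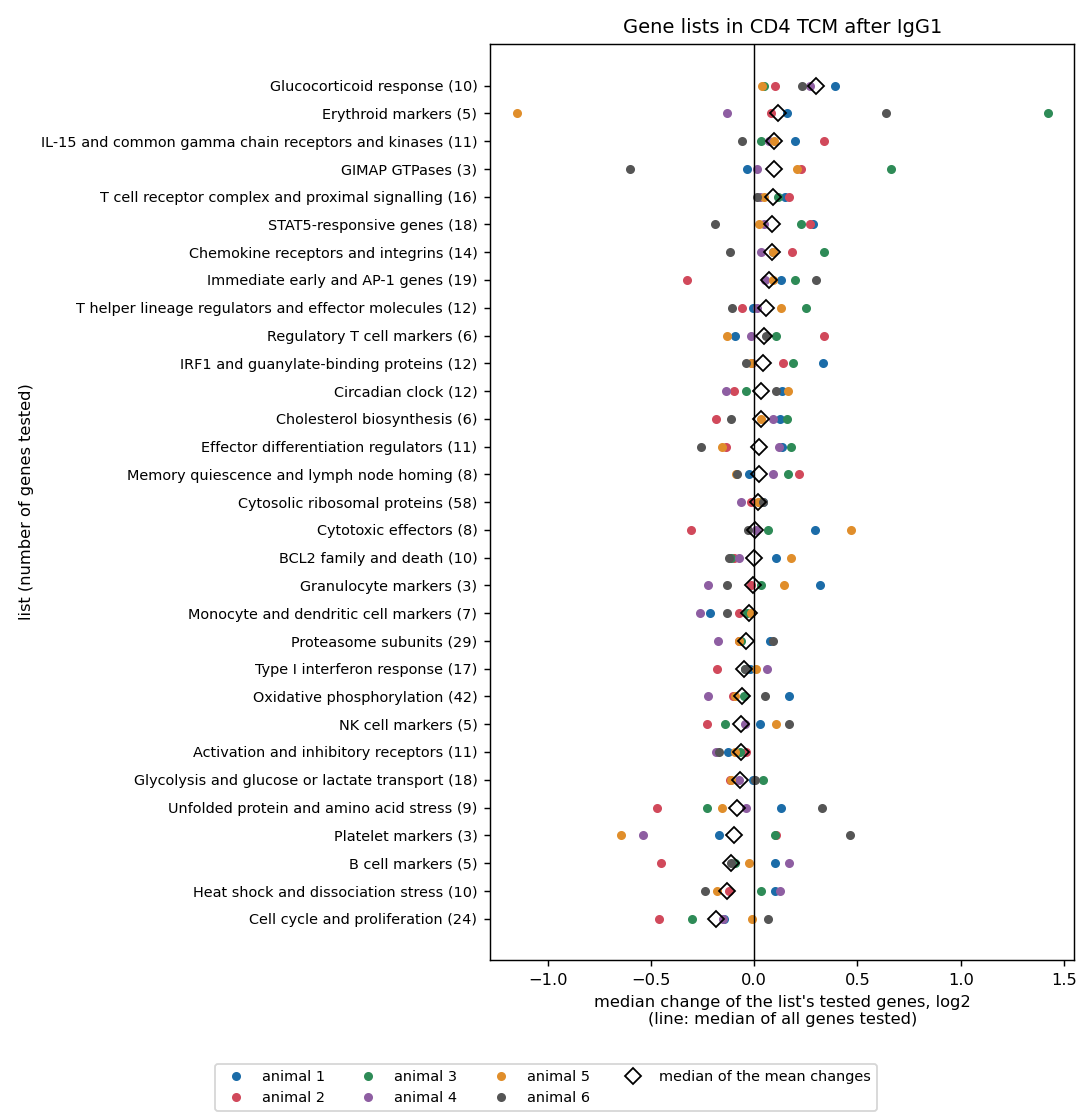
Median change (post minus pre, log2) of each gene list of at least 3 tested genes in each of the 6 animals (points) and the median of the members' mean changes (diamonds), ordered by the latter, with the median of all genes as a vertical line. The glucocorticoid list lies to the right of the line in 6 animals, the cell cycle list to the left in 5, and the erythroid list spreads most, from -1.15 in animal 5 to 1.42 in animal 3.

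Interferon-responsive transcripts did not shift together after IgG1. Of 17 tested type I interferon genes 0 passed and 11 had a mean change below 0, with a median of -0.05. IFI44 was at 7.63 ± 1.12 pre and 7.38 ± 0.98 post, IFI6 at 7.74 ± 0.72 and 7.58 ± 0.85, and IFI27, a mitochondrial protein induced by type I interferon, at 6.69 ± 1.02 and 6.47 ± 1.33. In each of these the SD between animals was several times the difference between the times. IRF1, a transcription factor induced by interferons, was at 6.67 ± 0.52 and 6.89 ± 0.79 and was higher in 4 of 6 animals. Of the 12 tested genes on the list of IRF1 and guanylate-binding proteins, 10 were above 0 (median 0.04).

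The 24 CD4+ samples allowed the IgG1 change to be set against the change after anti-IL-15, in which SOCS1, IRF1 and IFI27 are the 3 genes that passed (0.0336% of the genes tested). No gene differed between the 2 changes at an adjusted p under 0.05 (0 of 8919, 0%, limma, lowest adjusted p = 0.895), with 336 (3.77%) at an unadjusted p under 0.05. For SOCS1 the change was 0.76 after IgG1 and 1.05 after anti-IL-15, a difference of -0.29 ± 0.20 (95% interval -0.71 to 0.13, limma adjusted p = 0.998). SOCS1 pre values ranged from 7.28 to 9.02 in the IgG1 animals and from 8.17 to 9.37 in the anti-IL-15 animals. SOCS3 was likewise higher post in 6 of 6 animals of each group, at 0.65 and 0.93 (difference -0.28 ± 0.29). IRF1 had changes of 0.22 and 1.03 (difference -0.82 ± 0.23, 95% interval -1.31 to -0.32) and IFI27 of -0.22 and 1.80 (-2.01 ± 0.42, interval -2.89 to -1.14), and neither difference passed the test (limma adjusted p = 0.998 and 0.895). Both genes were picked for their anti-IL-15 change in these same samples. That change is part of the difference, so the choice favours intervals away from 0. IFI27 was higher post in 2 animals, lower in 3 and equal in 1 after IgG1, and higher in 6 of 6 after anti-IL-15. The other genes with the lowest p were MAP2K2, with changes of 0.57 and -0.48, EHMT2, with 0.46 and -0.35, OSBPL3 and OAZ2. The glucocorticoid and cell cycle lists moved in the same direction after both antibodies. Their median changes were 0.30 and -0.18 after IgG1 and 0.37 and -0.16 after anti-IL-15.

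In CD8+ TCM of the same 6 animals, 0 of 9964 genes differed in their IgG1 change from CD4+ TCM (0%, limma, lowest adjusted p = 0.988), with 428 (4.30%) at an unadjusted p under 0.05. SOCS1 was higher post in 5 of 6 CD8+ pairs, at a mean change of 0.51, against 0.76 in CD4+ TCM. SOCS3 had 0.39 in CD8+ and 0.65 in CD4+ TCM, and CCND3 0.42 and 0.43. Of the genes named as higher in CD4+ TCM, DUSP8, MAP2K2 and LRRC14 had CD8+ changes of 0.44, 0.56 and 0.36, while ACIN1 was at 0.01, EHMT2 at -0.21 and NISCH at -0.21. The cell cycle list had a median of -0.09 in CD8+ TCM and the glucocorticoid list 0.11. The lowest p-values belonged to MICOS10, a subunit of the mitochondrial inner membrane organising complex (-0.30 in CD4+ and 0.90 in CD8+ TCM), ISM1 (0.37 and -0.48), TACR2 (-0.16 and 0.69), PI4KAP2 (0.42 and -0.37) and TBC1D19 (0.03 and -0.64). Across the 8919 genes of both cell types the changes correlated at a Pearson r of 0.148, a description over genes of cells from the same blood samples.

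More genes passed the test between the animals than between the times, where 0 did. A limma F-test of the 6 animals over the 12 samples, with time as a term, called 656 of 8919 genes (7.36%) at an adjusted p under 0.05. The range of the animal means had a median of 1.36 log2 units in the called genes and 0.50 in all genes, and exceeded 2 units in 120. A range over 6 animals is not the same measure as a mean change within animals. Over all genes tested, the consensus correlation within animals was low, at 0.0873 in the 24 CD4+ samples. The largest gap between ordered animal means set 1 animal apart in 344 of the 656 (52.4%, against 55.1% of all genes tested), and the pair of animals 5 and 6 in 59 (8.99% against 3.33%). Without animals 5 and 6, 252 genes were called. The same F-test in the CD8+ TCM of these animals called 485 of the 8919 genes (5.44%) and 328 of the 656, which is 50.0% of the CD4+ list and 67.6% of the CD8+ list. With human probes, a difference in the animals' sequence under the probe and a difference in transcript level cannot be told apart in these values.

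Several of the 15 genes with the widest range were near background in some animals and bright in others, at both times. RPS4Y1, a Y-linked ribosomal protein gene in human, lay between 13.81 and 14.18 in the 8 samples of animals 1 to 4 and between 5.31 and 5.44 in the 4 samples of animals 5 and 6. Its paralogue RPS4Y2, whose probe may share transcripts with it, had the same split (10.34 to 10.92 against 4.58 to 5.11). Neither gene differed between the 4 remaining animals once animals 5 and 6 were left out (limma adjusted p = 0.906 and 0.712). CCDC134, a secreted coiled-coil protein, was at 11.25 and 10.83 in the 2 samples of animal 1 and between 4.77 and 5.29 in the other 10. HLA-DOB, a chaperone of the MHC class II pathway, was detected in the 8 samples of animals 2 to 5 (8.52 to 9.02) and in none of animals 1 and 6 (4.40 to 4.92). In animal 2 alone ICAM3, a leukocyte adhesion molecule, was low, at 6.11 and 5.88 against 9.94 to 11.29 in the other 5 animals.

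In the other genes the animal means were either split or spread over the range. NDUFB9, a subunit of respiratory complex I, was at 6.93 and 6.91 in animal 1 and between 10.29 and 11.44 in the others. JAM3, a junctional adhesion molecule, had animal means from 5.74 in animal 2 to 10.65 in animal 6, and SLC1A5, the glutamine transporter ASCT2, from 4.80 in animal 4 to 9.25 in animal 6. POGLUT1, a glucosyltransferase of Notch, had means of 6.73 and 6.31 in animals 5 and 6 and 9.19 to 10.39 in the others, PON3, a lactonase, ran from 4.50 in animal 5 to 8.46 in animal 1, RPL14 from 5.48 in animal 2 to 9.55 in animal 4, and TMX1, a membrane thioredoxin, from 4.91 in animal 3 to 8.96 in animal 1. The probes named for the class I genes HLA-C and HLA-G ranged from 6.83 (animal 2) to 10.95 (animal 6) and from 7.73 (animal 6) to 11.70 (animal 5). These are human names, and macaque class I genes are multiplied and closely related, so the transcripts behind the signal are uncertain. Of 16 tested genes with an HLA symbol, a group picked after its values were seen, 5 were called, where 7.36% of all genes were (HLA-DOB, HLA-G, HLA-C, HLA-B and HLA-DPA1). The largest limma adjusted p of the 15 genes was 1.28e-05, for HBB.

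**Figure D5:**
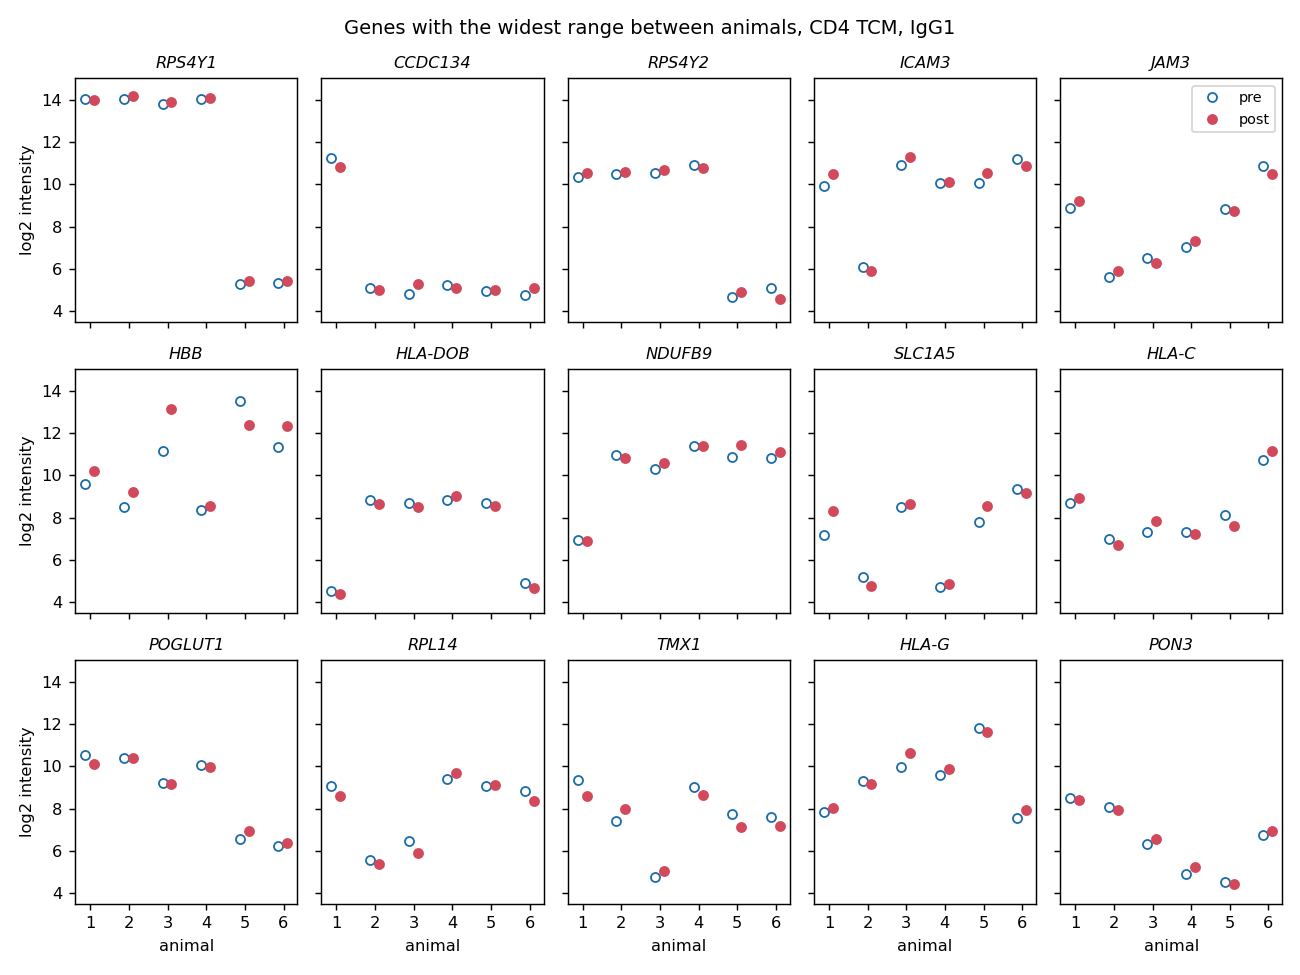
Log2 intensity of the 15 genes with the widest range between animals, in the pre (open) and post (filled) sample of each of the 6 animals. RPS4Y1 and RPS4Y2 are low in animals 5 and 6, CCDC134 is high in animal 1 alone, ICAM3 is low in animal 2 and HLA-DOB is low in animals 1 and 6, and in each of these genes the 2 samples of an animal lie close together.

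The CD8+ samples of the same animals differed along similar lines. In 12 of these 15 genes the highest animal, and in 12 the lowest, was the same in CD8+ as in CD4+ TCM. CCDC134 was at 9.57 in CD8+ TCM of animal 1 and at 4.92 to 5.35 in the others, ICAM3 at 6.37 in animal 2 and 10.13 to 11.11 in the others, and HLA-DOB at 4.70 and 4.62 in animals 1 and 6 and 7.60 to 7.90 in the others. HBB had the widest differences within animals among the 15 genes: it went from 11.16 to 13.14 in animal 3 and from 13.53 to 12.38 in animal 5. The next widest was SLC1A5, which went from 7.19 to 8.31 in animal 1. The other probes of HLA-C, POGLUT1 and TMX1 were detected in 0 of 12 samples and the other probe of RPL14 in 8, with a range of animal means of 1.15, so no second probe bore out these ranges.

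Some gene lists held many genes that separated the animals, and others held about the share found in all genes. Of 17 tested type I interferon genes 9 were called by the F-test (52.9% against 7.36% of all genes), as were 7 of 19 immediate early genes, 4 of 8 cytotoxic effectors, 4 of 12 on the IRF1 list and 4 of 18 STAT5-responsive genes. The glucocorticoid list had 4 of 10 genes called (40%) and the erythroid list 3 of 5 (60%). The T cell receptor list (1 of 16, 6.25%), the T helper list (1 of 12, 8.33%) and the IL-15 receptor and kinase list (1 of 11, 9.09%) were near the 7.36%. On the regulatory T cell list 0 of 6 were called, too few genes to set against that share. The members named next were chosen after their F-test values were seen. ISG15, the ubiquitin-like protein induced by interferon, had animal means from 6.81 in animal 5 to 9.69 in animal 3, and IFI44 from 6.08 in animal 2 to 9.06 in animal 1. OAS1, the oligoadenylate synthetase that senses double-stranded RNA, was at 5.74 in animal 5 and 7.32 to 7.98 in the other 5, so the interferon genes did not rank the animals alike. BCL2, the survival gene downstream of common gamma chain cytokines, ran from 7.97 in animal 2 to 10.06 in animal 5. SOCS1 itself ran from 7.61 in animal 6 to 9.43 in animal 5, a range of 1.82. The immediate early genes FOS, DUSP2 and JUNB had their lowest mean in animal 6 (8.89, 7.69 and 5.87), and the highest were 11.58 for FOS and 7.84 for JUNB in animal 2 and 10.66 for DUSP2 in animal 5. CD3G, a chain of the T cell receptor complex, was at 8.93 and 8.97 in animals 1 and 6 and at 11.00 to 11.33 in the other 4.

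The brightest signals lay at the top of the normalized scale. These genes were picked for brightness over the 12 samples, and quantile normalization gives the top ranks of every array the same values. Small changes were thus nearly set by the choice and do not measure stability. The 10 brightest genes that encode no ribosomal protein were TPT1, HLA-H, KLF2, OAZ1, EEF1A1, TMSB4X, CREB1, SLC25A51, ZNF682 and FARSB, with mean changes of -0.10 to 0.13. KLF2, the transcription factor that keeps T cells quiescent and sustains their homing receptors, was at 14.01 ± 0.15 pre and 14.00 ± 0.10 post, a change of -0.01 ± 0.12. The probes of TPT1, EEF1A1 and TMSB4X may also read transcripts of their processed copies. Whether the other probes read transcripts of further genes was not tested, so a bright probe need not mean an abundant transcript.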

How the data were processed

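Gene expression was measured in sorted TCM, 1 array per sample apart from 1 CD8+ sample with 2 arrays, which were averaged. The authors deposited non-normalized probe intensities for all 49 arrays, and the deposited detection p-value of each probe stands beside its intensity, per the file headers. They also deposited a table of log2 values, which matched a quantile normalization of the log2 intensities within 0.01 for 99.9999% of values. The submitters' processing notes name limma, with no version.

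From the intensities, neqc of limma 3.58.1 in R 4.3.3 corrected background from the detection p-values, added an offset of 16, quantile normalized the 49 arrays and took log2. Of 47230 probes, 30113 have 1 symbol in the platform annotation, and 49 intensities of 0 in 13 probes were left out. Probes with a detection p-value under 0.05 in at least 6 of the 24 CD4+ samples were kept, with the brightest probe per gene (8919 genes). limma fitted the 24 CD4+ samples with animal as a block and a post term per antibody. The samples share a donor name in the labels, and the pre and post samples of an animal correlated in all 6 animals (lowest r = 0.189). Animal differences were tested with limma's F-test over the 12 IgG1 samples, and cell types over all 48. Adjusted p-values are Benjamini-Hochberg over all genes, at 0.05. The number of arrays limits the precision.

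The samples described and the 33 gene lists (24 pathway lists, 9 cell type lists) were chosen with earlier results of these data known. The text names the 12 higher and 12 lower genes with the lowest p among those of one direction in all 6 animals, since no gene passed. It also names up to 4 members per list by p, the 15 called genes with the widest range between animals, the 5 lowest p-values of each comparison between changes, and the 10 brightest genes. Alternatives to these choices are given in the closing section.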

Additional observations from a re-analysis of the deposited data

Results flagged for a closer look

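Dixon's test was applied to 59 sets of 6 values, 1 per animal, and set 4 values apart, where chance sets apart about 1 in 20 groups. The change of CACUL1 was -1.03 in animal 5, with the next animal at -0.51. The change of SLC50A1 was -0.12 in animal 6, with the next at -0.56, so that animal changed least. The number of cells sorted after IgG1 was 788000 in animal 3, with the next at 391000. The median absolute change per gene was 0.298 in animal 1, with the next at 0.232, and without animal 1 no gene was called either (limma).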

How the results depend on the processing

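With limma, 0 genes were called for the IgG1 change under each alternative run, a threshold of 0.1 included, except with array weights, which called 1, SOCS1 (adjusted p = 0.0494). Leaving out 1 animal at a time gave 0 calls each time. With no replicate block, and with the pairing by animal as a random replicate block (consensus correlation 0.0873), 0 genes were called, and the block changed no other call. The number of genes that differed between animals was 373 with no filter on detection, 252 without animals 5 and 6, and between 452 and 685 when 1 animal was left out, against 656. RPS4Y1 and RPS4Y2 lost their call without animals 5 and 6, and CCDC134 and NDUFB9 without animal 1 (ranges 0.227 and 0.95, limma adjusted p = 0.913 and 0.0697). The geometric mean ratio of sorted cells was 0.708 to 0.877 with 1 animal left out, and the median ratio 0.702. The glucocorticoid median was 0.132 with the deposited values, 0.131 without background correction and 0.143 over genes detected in all 12 samples. The cytotoxic median was 0.328 over the latter genes. Of 617 refitted changes of named genes, 616 kept their direction and side of the threshold, as did 185 of 189 ranges. Of 33 list medians, 13 kept their sign under every alternative run, the glucocorticoid and cell cycle lists among them, and 20 changed it under at least 1, such as heat shock (-0.19 to 0.04), immediate early (-0.06 to 0.23) and erythroid (-0.05 to 0.53). The limits are 6 animals, human probes on macaque RNA, and an interval between samples that the labels do not give.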
